A study of Mus musculus with 20 samples.

Results

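Integrins and laminins are the cell surface receptors and the basement membrane proteins by which heart muscle cells, vessels and other cells of the myocardium hold on to the matrix around them. Members are rows of the deposited gene table that name an integrin alpha or beta chain or a laminin alpha, beta or gamma chain, except Itgam, Itgax and Itgb2, the 3 leukocyte integrin chains that the rule leaves out. Reported here are 33 such genes of the 25308 in the table, 23 integrins and 10 laminins, taken by a rule on gene names. That rule was chosen with earlier results of these data known, so the set is not a blind choice. Of these, 31 (22 integrins and 9 laminins) had counts high enough to be tested, among 14477 tested genes.

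The hearts came from 20 mice, and RNA of the apex was sequenced. The AL group (n = 9) was λS-DH mice, homozygous for a human λS light chain gene knocked into the Ig kappa locus. They carry the DH-LMP2A alleles, with which plasma cells develop that make no Ig heavy chain, and their hearts held amyloid deposits. The study induced deposits by an intravenous injection of λS variable domain, as fibrils or in soluble form, and which route applied to each of these AL mice is not given in the sources used here. The LS group (n = 4) had the same genotype, was not induced and had no deposits. The Ctrl group (n = 7) was DH mice, the same background without the human gene, described as age-matched, so that the LMP2A background is shared by all 3 groups and Ctrl mice still make mouse light chains. Both sexes were used, and the age, sex and time since injection of single mice were not used here.

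Laminins are trimers of an alpha, a beta and a gamma chain that polymerise into the sheet of the basement membrane, and nidogens, perlecan, agrin and type IV collagen join that sheet. Integrins are dimers of an alpha and a beta chain, and the alpha chain largely sets the ligand: alpha3, alpha6 and alpha7 bind laminins, alpha1, alpha2, alpha10 and alpha11 bind collagens, and alpha5, alphaV, alpha8 and alphaIIb bind ligands with the RGD motif. In heart muscle, the laminin alpha2 chain is bound by integrin alpha7beta1 and by dystroglycan of the dystrophin complex, and the laminin alpha4 and alpha5 chains belong mainly to vessel walls.

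The libraries came from 2 sequencing runs, which the sample labels give as batches. The first run held 15 mice (AL1 to AL7, all LS and Ctrl1 to Ctrl4) with 43993277 to 62668146 counts each, and the second held 5 (AL8, AL9 and Ctrl5 to Ctrl7) with 7867642 to 11794615. All 6 cardiomyocyte markers were detected in every mouse, with Myh6 at 13748 CPM (counts scaled to a common library size) or more. In the first run, 5 libraries (LS1, LS3, Ctrl1, Ctrl3 and Ctrl4) held between 93.4 and 215 CPM of albumin, a liver transcript, against at most 21.7 CPM in the AL mice, and all 10 liver markers were lower in AL than in Ctrl mice at an FDR under 0.05. All 5 mesothelial markers were detected in every mouse, with a summed level of 16.04 to 232 CPM in AL, 7.19 to 24.5 CPM in LS and 13.7 to 35.5 CPM in Ctrl mice, and the highest sum was that of AL9. The part of these RNAs in the results that follow was not tested, beyond the values given with and without the libraries concerned. In tissue RNA, fewer cells of a type and less RNA per cell cannot be told apart.

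The 250 bases before the RefSeq start sites of Lama2 and Itgb5 are shown here because these were the tested members whose values in the first run separated all AL from all Ctrl mice, Lama2 downward and Itgb5 upward. The sequences are from RefSeq on GRCm38.p6, at chr10:27616943-27617192 on the minus strand for Lama2 and at chr16:33829415-33829664 on the plus strand for Itgb5, and each is printed in the direction of its gene. Capitals mark the GC box GGGCGG and the E-box CANNTG, searched on both strands.

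Lama2: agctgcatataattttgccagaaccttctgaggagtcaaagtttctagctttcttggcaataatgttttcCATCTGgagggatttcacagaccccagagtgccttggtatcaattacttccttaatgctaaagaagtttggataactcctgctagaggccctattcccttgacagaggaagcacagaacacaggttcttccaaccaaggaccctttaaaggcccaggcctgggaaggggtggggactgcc

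Itgb5: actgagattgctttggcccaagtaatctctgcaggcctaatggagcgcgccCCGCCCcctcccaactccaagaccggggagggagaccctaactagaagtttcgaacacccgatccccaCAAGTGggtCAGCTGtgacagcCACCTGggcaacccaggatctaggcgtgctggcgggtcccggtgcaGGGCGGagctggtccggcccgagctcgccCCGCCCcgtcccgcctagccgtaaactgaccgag

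The Lama2 window holds no GC box and 1 E-box, at 47.2% GC, whereas the Itgb5 window holds 3 GC boxes and 3 E-boxes, at 65.2% GC. Of 32851 mouse promoter windows of the same length, 32.7% hold a GC box and 66.2% an E-box. Neither window holds TATAAA (12.4% of all windows) or the AP-1 motif TGANTCA (6.75%). A match of letters is a description of the window and not a site. Lama2 itself spans chromosome 10, positions 26980036 to 27619758 on the minus strand (GENCODE M21, GRCm38), so the RefSeq start used here lies inside that annotated gene, and Itgb5 spans chromosome 16, positions 33829665 to 33949338 on the plus strand.

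Levels per length were used to compare the genes with each other, as TMM-normalised CPM per kb of annotated exon (mean of 20 mice). Itgb1, the beta chain shared by most integrins of the heart, was the most abundant member at 98.7 CPM per kb. It was followed by Lamb2, the laminin beta2 chain (40.4 CPM per kb), Itgb5 (24.3 CPM per kb), Lamc1, the common gamma chain (21.8 CPM per kb), and Itga7, the muscle laminin receptor chain (16.1 CPM per kb). Itga5, the fibronectin receptor chain (10.8 CPM per kb), Lamb1 (9.82 CPM per kb), Lama2 (8.54 CPM per kb) and Itga9 (7.10 CPM per kb) came next. Lama4, Lama5 and Itga6 were within 6.38 to 6.71 CPM per kb of each other, which is less than the spread of Lama5 between mice. With the longest transcript as the length, Itga7 moved to rank 3 and Itga5 to rank 10, and Itgb1 and Lamb2 remained first and second. At the other end, Lama1, the chain of early embryonic basement membranes, had 0 to 6 counts and Itgad 0 to 19 counts in any mouse, and neither was tested.

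**Figure D1:**
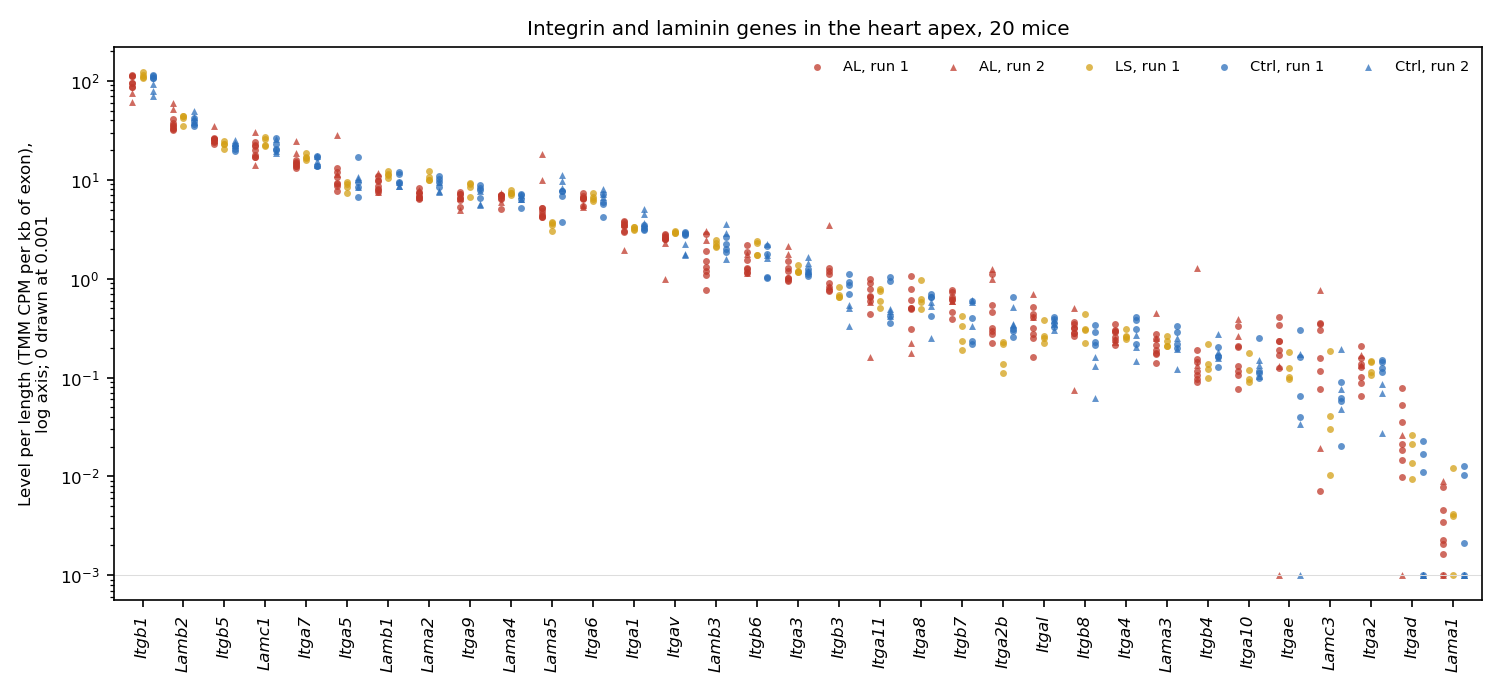
Level per length of the 33 genes in each of 20 mice (TMM CPM per kb of exon, log axis, values of 0 drawn at 0.001), with colours for the group and circles or triangles for sequencing runs 1 and 2. The genes span from Itgb1 at a mean of 98.7 CPM per kb to Lama1 at 0.0038 CPM per kb, and the groups lie on top of each other for most genes.

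Within some classes of chain, a few genes made up most of the level per length. Among laminin alpha chains of the first run, Lama2 was 38.5% ± 2.21 in AL mice (SD, n = 7), with 49.2% ± 2.64 for LS mice (n = 4) and 42.6% ± 3.64 for Ctrl mice (n = 4). Lama4 was 35.4% ± 2.01 in AL, 33.9% ± 1.59 in LS and 28.1% ± 4.53 in Ctrl mice. Lama5 was 25.1% ± 1.88 in AL, 15.9% ± 1.26 in LS and 28.1% ± 7.24 in Ctrl mice. With annotated exon as the length, Lama2 thus had the highest mean share of the alpha chains in each group of the first run. The mean share of Lama5 was lowest in LS mice. In the second run Lama5 led instead, with 48.6% against 26.1% for Lama2 in AL mice (n = 2) and 39.3% against 33.2% in Ctrl mice (n = 3). Annotated exon is 16338 bp for Lama2, 12068 bp for Lama4 and 11388 bp for Lama5. Their longest transcripts are 9614, 6046 and 11388 bp. The order of these chains therefore depends on the length used, and shares by longest transcript are not given here. Itga7 was 67.5% and Itga6 27.1% of the laminin-binding integrin alpha chains over all mice, and Itgb1 was 77.5% and Itgb5 19.6% of the integrin beta chains.

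The comparison of AL with Ctrl mice asks which genes differ between hearts with amyloid and hearts of the background strain. Of the members reported here, Itgb5 was higher and Lama2 was lower at an FDR under 0.05 (edgeR quasi-likelihood test with the sequencing run in the model, Benjamini-Hochberg adjustment over all tested genes). Neither was past the absolute log2FC of 0.58 required for a call, which 7.81% of all tested genes passed. With DESeq2, 2 members (Itgb3 and Lamc3) were called, beside 8.71% of all genes. With edgeR, 7 members had an unadjusted p under 0.05, beside 38.8% of all genes. The 1 member higher in AL stands against 10.7% of all genes that were higher, and the 1 lower member against 15.4% that were lower. The median log2FC of the members was 0.02, against 0.01 for all genes, and the difference of 24 of the 31 members was under 0.5 on the log2 scale. For 19 members, the 95% interval of the log2FC lay within -0.58 to 0.58.

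**Figure D2:**
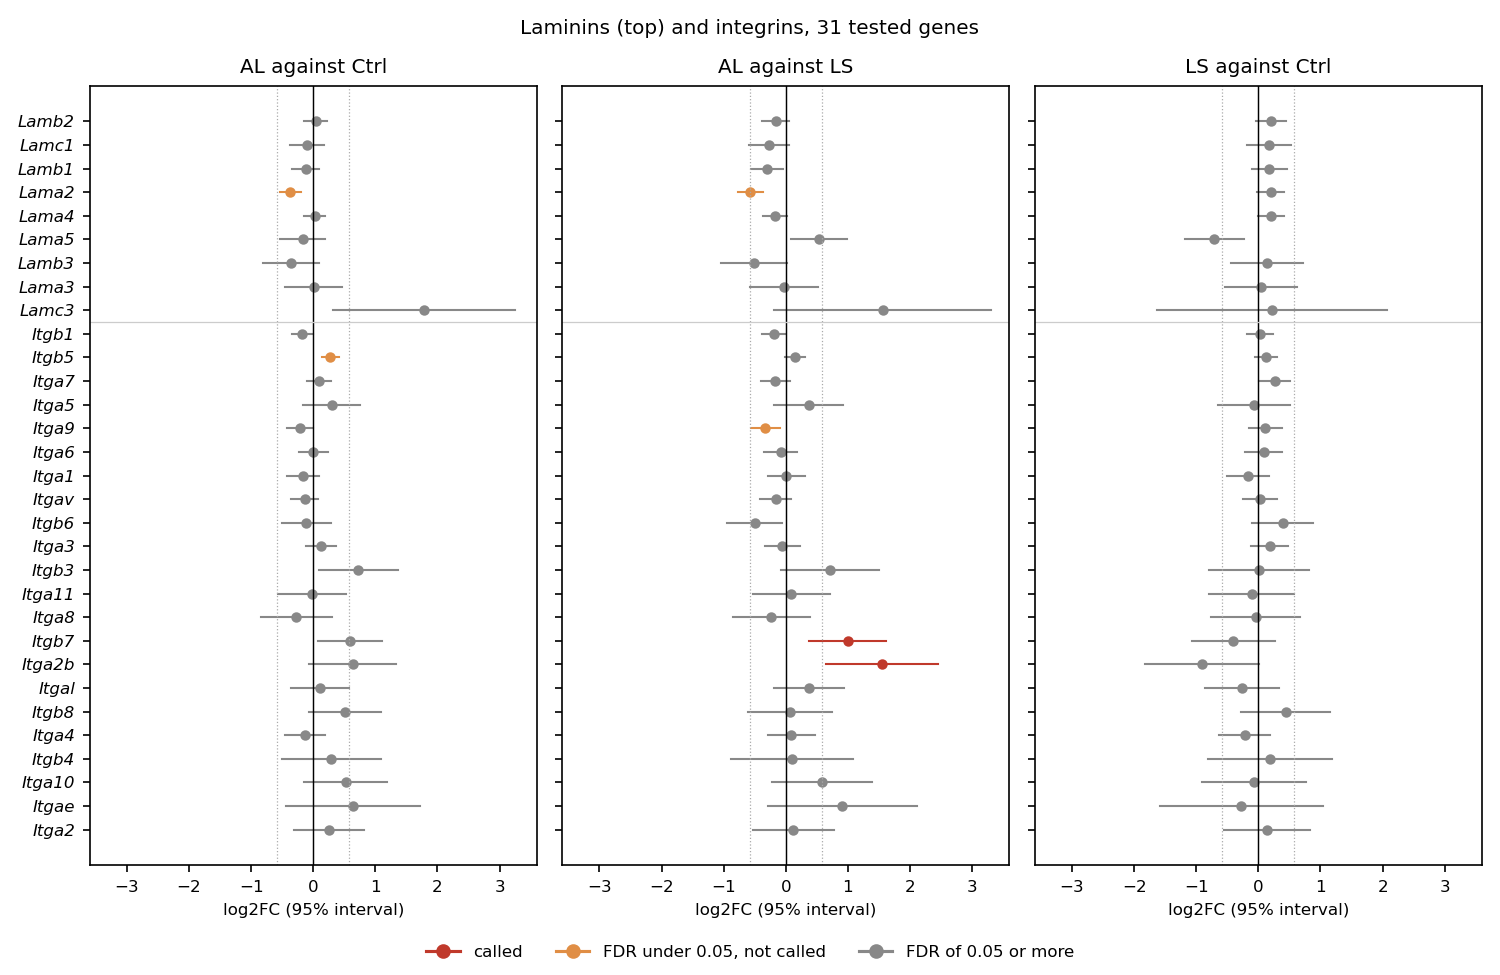
log2FC with 95% intervals of 31 tested members, laminins above the line and integrins below it, in order of level, for the 3 pairwise comparisons of AL, LS and Ctrl mice (edgeR, all mice). Dotted lines mark 0.58 and -0.58, red marks called genes and orange an FDR under 0.05 without a call. Itga2b and Itgb7 are called in the second panel, and no gene shown is called in the first or the third.

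Lama2 encodes the laminin alpha2 chain, the alpha chain of the basement membrane around muscle fibres, whose loss causes congenital muscular dystrophy. In the AL mice it was between 105 and 136 CPM (median 111 CPM). In the LS mice it was 175, 164, 163 and 202 CPM. In the Ctrl mice it was between 123 and 178 CPM (median 153 CPM). In the first run, every AL mouse was below every LS and Ctrl mouse, which held for 1 of 31 members downward and 0 upward, against 9.42% of all tested genes without overlap in either direction. In the second run the AL values of 108 and 128 CPM overlapped the Ctrl values of 123, 153 and 126 CPM. The log2FC was -0.37 (SE 0.0794, FDR 0.00267) against Ctrl and -0.57 (SE 0.0936, FDR 0.000661) against LS mice. Against Ctrl the log2FC was -0.45 in the first run alone (FDR 0.00341) and -0.13 in the second (FDR 0.761), and the difference between the runs did not pass (log2FC 0.28, FDR 0.412). Removing the 5 mice with albumin above 50 CPM left LS2, LS4, Ctrl2 and Ctrl5 to Ctrl7, so that Ctrl2 was the only Ctrl mouse of the first run. Without those 5 mice, the log2FC against Ctrl was -0.26 (FDR 0.163) and that against LS -0.63 (FDR 0.0215). With ComBat-seq adjusted counts both missed the threshold (FDR 0.167 against Ctrl and 0.0639 against LS), and with the liver list as a covariate the FDR against Ctrl was 0.0685. The summed level of 6 cardiomyocyte markers in the first run was 32217 to 42279 CPM in AL and 42293 to 50080 CPM in LS and Ctrl mice. In the second run AL mice (52236 to 61197 CPM) and Ctrl mice (57597 to 63602 CPM) overlapped. Of these 6 genes, 1 was lower in AL at an FDR under 0.05 against Ctrl and against LS mice. The median log2FC of the 6 was -0.05 against Ctrl and -0.13 against LS mice. The part of these cells in the Lama2 difference was not tested.

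Itgb5 encodes the integrin beta5 chain, which pairs with alphaV to bind vitronectin. It was between 82.5 and 125 CPM in AL mice (median 91.1 CPM). The LS mice had 82.0, 88.0, 82.2 and 72.2 CPM. In Ctrl mice it was between 70.1 and 90.6 CPM (median 80.4 CPM). In the first run every AL mouse was above every Ctrl mouse, though not above every LS mouse. In that run 1 member (Itgb5) lay above and 1 (Lama2) below all Ctrl mice, and 14.3% of all tested genes were without overlap. The log2FC was 0.28 (1.21-fold, SE 0.0643, FDR 0.00463) against Ctrl and 0.15 against LS mice (FDR 0.152). The rise against Ctrl was thus small, and it missed the threshold without the run term (FDR 0.0551), with ComBat-seq (FDR 0.358) and without the mice high in albumin (FDR 0.0862). Its alpha partner Itgav had a log2FC of -0.14 (FDR 0.346) against Ctrl mice, and AL8 held 10.7 CPM of Itgav against 24.7 to 30.4 CPM in the other AL mice.

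**Figure D3:**
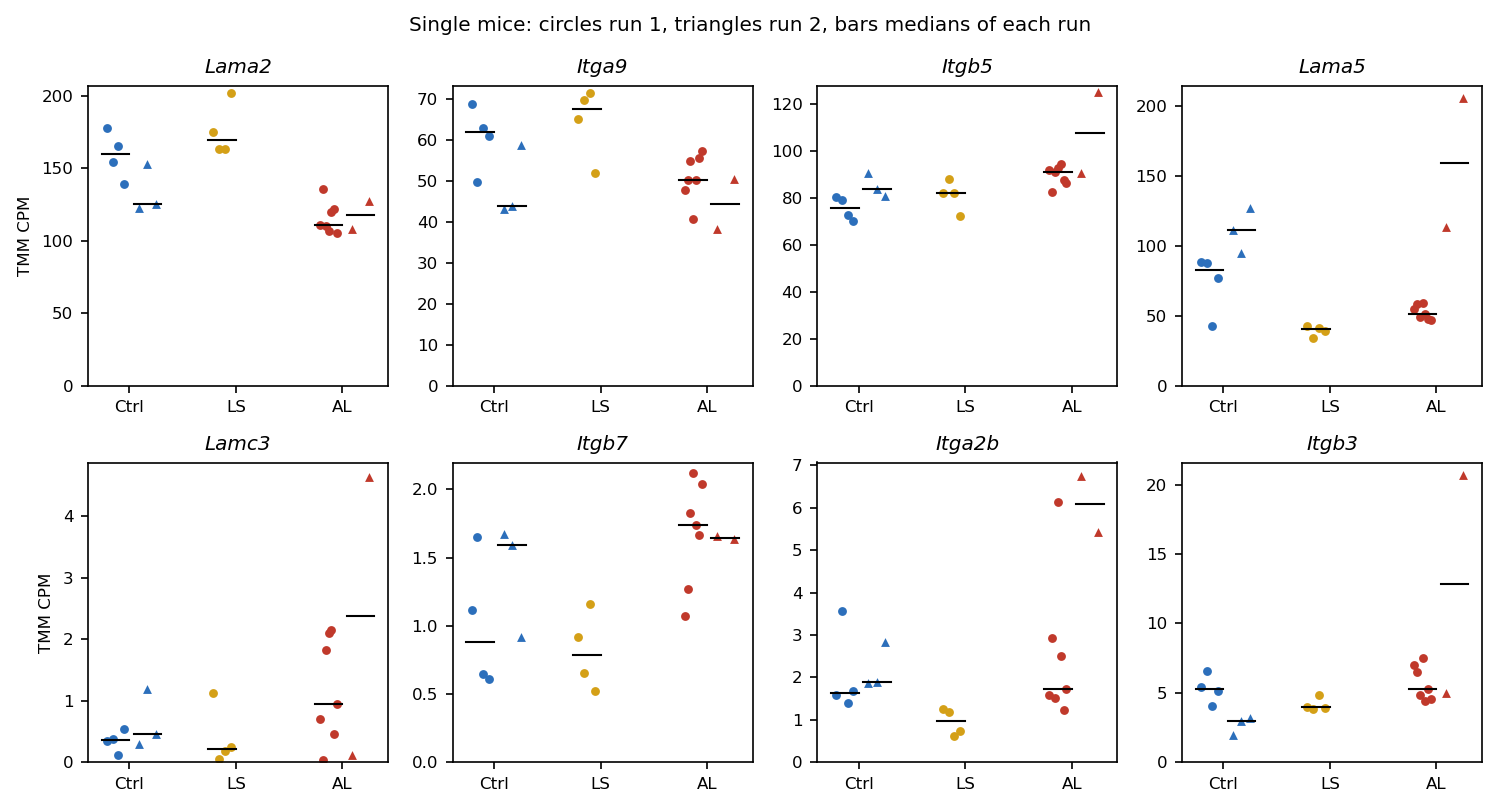
Values of 8 members in single mice (TMM CPM, linear axes from 0; circles run 1, triangles run 2, bars the median of each group in each run). Lama2 of the first-run AL mice lies below all LS and Ctrl mice, Itga9 of 3 LS mice lies above all AL mice, and AL9 stands above all other mice for Itgb5, Lama5, Lamc3 and Itgb3.

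The comparison of AL with LS mice sets hearts with deposits against hearts of the same genotype without them. Itga2b and Itgb7 were called higher, and Lama2 (above) and Itga9 were lower at an FDR under 0.05 with smaller differences. These 2 called members stand beside 8.9% of all genes that were called. By FDR alone, 2 members were higher, beside 9.78% of all genes, and 2 were lower, beside 13.6%. The median log2FC was 0.01 over the members, -0.18 over the 9 laminins and 0.09 over the 22 integrins. AL mice are shared with the comparison against Ctrl, so the 2 comparisons are not independent.

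Itga2b encodes alphaIIb, the chain that with beta3 forms the fibrinogen receptor of platelets and megakaryocytes. It was between 1.23 and 6.76 CPM in AL mice (median 2.51 CPM), with AL4, AL8 and AL9 at 5.42 CPM or more. In LS mice it was 1.25, 1.18, 0.611 and 0.751 CPM. Ctrl mice ranged between 1.40 and 3.58 CPM (median 1.87 CPM). LS mice were the low group, since only LS1 reached the lowest AL mouse and no LS mouse reached the lowest Ctrl mouse, a separation of LS from Ctrl mice that 3.15% of all tested genes showed in either direction. The log2FC was 1.55 (2.92-fold, SE 0.433, FDR 0.0156) against LS and 0.63 (FDR 0.168) against Ctrl mice. Without LS3 the FDR against LS was 0.0573, without LS4 it was 0.0528 and without the mice high in albumin it was 0.15. Among 5 tested platelet markers, 3 were also higher in AL than in LS mice at an FDR under 0.05 and 1 was higher than in Ctrl mice. Their summed level was 11.4 to 21.4 CPM in AL, 11.1 to 12.0 CPM in LS and 4.13 to 13.9 CPM in Ctrl mice, and Gp1bb, the sixth marker, was at 0 in 12 mice. The part of these cells in the Itga2b difference was not tested.

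Itgb7 encodes the beta7 chain, which pairs with alpha4 or alphaE on lymphocytes and some myeloid cells. It was between 1.07 and 2.12 CPM in AL mice (median 1.67 CPM). The LS mice had 0.921, 0.652, 1.16 and 0.520 CPM. Ctrl mice had between 0.610 and 1.67 CPM (median 1.12 CPM). Only AL1, at 1.07 CPM, was below the highest LS mouse, while AL and Ctrl mice overlapped widely. The log2FC was 0.99 (1.99-fold, SE 0.294, FDR 0.0206) against LS and 0.59 (FDR 0.0854) against Ctrl mice. Without LS2 the FDR against LS was 0.0718, without LS4 it was 0.0813, and with ComBat-seq it was 0.0523. With the liver list as a covariate it was 0.0693, and with a replicate block 0.097. The alpha partners gave log2FC against LS of 0.09 for Itga4 (FDR 0.751) and 0.91 for Itgae (FDR 0.26). Of 7 T cell markers, 0 passed against LS and 1 was higher against Ctrl mice, with a median log2FC of 0.89 against LS and 0.14 against Ctrl. Their summed level was 1.90 to 4.76 CPM in AL, 1.52 to 3.09 CPM in LS and 2.15 to 4.33 CPM in Ctrl mice. Median log2FC against LS was 0.73 for B cell, 0.47 for NK cell, 0.73 for mast cell, 0.38 for macrophage and 1.22 for neutrophil markers. Against Ctrl these medians were 0.13, -0.30, 0.89, 0.37 and -0.06, and 0 markers of these lists passed in either comparison. The part of these cells in the Itgb7 difference was not tested.

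Itga9, a receptor chain for tenascin and for other matrix ligands, was between 38.2 and 57.4 CPM in AL mice (median 50.4 CPM). In LS mice it was 65.2, 69.8, 71.5 and 51.9 CPM. In Ctrl mice it was between 43.1 and 68.7 CPM (median 58.7 CPM). AL and LS mice overlapped only through LS4. The log2FC was -0.33 (0.796-fold, SE 0.114, FDR 0.0442) against LS and -0.21 (FDR 0.112) against Ctrl mice. This was close to the threshold, and the FDR lay between 0.0528 and 0.141 when AL1, AL2, AL4, AL5, LS1, LS2 or LS3 was left out, and it was 0.324 without the mice high in albumin and 0.275 with ComBat-seq.

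The comparison of LS with Ctrl mice sets the soluble human light chain without deposits against the background strain. No member passed an FDR of 0.05 with edgeR or with DESeq2, beside 0.0207% of all genes with edgeR and 0.145% with DESeq2. At an unadjusted p under 0.05 there were 2 members, Lama5 and Itga7, beside 5.94% of all genes, and 29 of 31 members differed by less than 0.5 on the log2 scale. For 13 members the 95% interval of the log2FC lay within -0.58 to 0.58, and for the others a difference of that size was not excluded. All LS mice were sequenced in the first run.

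Lama5 encodes the alpha5 chain of vascular and many other adult basement membranes. It was 42.8, 34.3, 41.6 and 39.3 CPM in LS mice. Ctrl mice ranged between 42.6 and 127 CPM (median 88.4 CPM). In AL mice it was between 47.4 and 205 CPM (median 55.1 CPM). The LS mice were the low group, with only Ctrl3, at 42.6 CPM, below the highest LS mouse, and every AL mouse was above every LS mouse. Over both runs AL and LS mice did not overlap for Lama5 upward and for Lama2 and Itgav downward, beside 13.5% of all tested genes without overlap. The log2FC of LS against Ctrl was -0.71 (SE 0.226, unadjusted p 0.0054, FDR 0.744), and in the first run alone it was -0.91 (SE 0.174, unadjusted p 9.68e-05, FDR 0.331). AL against LS gave 0.54 (FDR 0.0755) with all mice and 0.42 (FDR 0.0487) in the first run alone. Against Ctrl, the AL mice were lower in the first run (log2FC -0.49, SE 0.151, FDR 0.0281), whereas in the second run the log2FC was 0.58 (FDR 0.387) and that over all mice was -0.17 (FDR 0.492). The runs thus gave opposite signs, and their difference had a log2FC of 1.01 (SE 0.299, FDR 0.0952). The summed level of 6 endothelial markers was 380 to 642 CPM in AL, 406 to 497 CPM in LS and 428 to 640 CPM in Ctrl mice, and 0 of the 6 passed in the 3 pairwise comparisons, while 1 was higher in AL mice than in LS and Ctrl mice merged and 3 were lower in the difference between runs.

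Itga7, the laminin receptor chain of muscle, was 135, 138, 151 and 129 CPM in LS mice. It was between 110 and 141 CPM in Ctrl mice (median 125 CPM) and between 107 and 202 CPM in AL mice (median 118 CPM). The log2FC of LS against Ctrl was 0.26 (95% interval 0.01 to 0.51, FDR 0.818). Against Ctrl the AL difference was 0.09 (95% interval -0.11 to 0.29), with AL8 and AL9 at 151 and 202 CPM and the first-run AL mice at 107 to 130 CPM.

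LS and Ctrl mice were also merged as controls, where a call needed an absolute log2FC of at least 1. Lamc3, a laminin gamma chain of low level in the heart, was the 1 member called, and 4.88% of all genes were called. It was between 0.0438 and 4.65 CPM in AL mice (median 0.952 CPM). The LS mice had 1.13, 0.0631, 0.183 and 0.250 CPM. Ctrl mice had between 0.125 and 1.20 CPM (median 0.380 CPM). AL3, AL4, AL5 and AL9 were above every LS and Ctrl mouse, while AL2 and AL8 were at or below 0.119 CPM. The log2FC was 1.69 (3.24-fold, SE 0.57, FDR 0.0254). It lost the call without AL4 (FDR 0.0512), without AL5 (FDR 0.0509) or without AL9 (log2FC 1.37, FDR 0.0869), with the liver list as a covariate (FDR 0.108), with a replicate block (FDR 0.189) or without the mice high in albumin (FDR 0.0549). All 5 mesothelial markers were higher in AL mice than in merged controls at an FDR under 0.05, and their part in the Lamc3 difference was not tested.

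By FDR alone, 5 members were higher than in merged controls (Lamc3, Itga2b, Itgb7, Itgb3 and Itgb5), beside 16.5% of all genes, and 3 were lower (Lama2, Itga9 and Itgb1), beside 19.8%. For Itgb1, the most abundant member, the log2FC was -0.18 (SE 0.0659, FDR 0.0365). It was between 247 and 463 CPM in AL mice (median 388 CPM). It was 452, 436, 468 and 500.3 CPM in LS mice and between 285 and 468 CPM in Ctrl mice (median 438 CPM). The groups overlapped, and the log2FC was -0.17 (FDR 0.105) against Ctrl and -0.20 (FDR 0.122) against LS mice. The difference from merged controls missed the threshold under 16 of 31 alternatives, with FDR up to 0.534 (ComBat-seq), and 8 of these left out a single mouse (AL1, AL3, AL4, AL5, AL8, LS3, LS4 or Ctrl6), with FDR up to 0.0762.

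For Itgb3 the log2FC against merged controls was 0.72 (SE 0.264, FDR 0.0384) with all mice. It was 0.37 without AL9 and 0.28 (FDR 0.143) in the first run alone. It missed the threshold under 14 of 31 alternatives, 10 of which left out a single mouse (AL1, AL2, AL4, LS1, LS2, LS4, Ctrl3, Ctrl5, Ctrl6 or Ctrl7), with FDR up to 0.0722. For Itga2b it was lost under 8 alternatives (FDR up to 0.176, single mice AL4, AL8 and LS4), for Itga9 under 4 (FDR up to 0.4003) and for Itgb7 under 3 (FDR up to 0.113), with no single mouse among them for Itga9 and Itgb7, and for Itgb5 with ComBat-seq (FDR 0.359). Lama2 passed under every alternative run.

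The other abundant members did not pass in any of these comparisons. Lamb2 was between 192 and 366 CPM in AL and between 215 and 299.7 CPM in Ctrl mice, and 268, 253, 271 and 211 CPM in LS mice. Its log2FC against Ctrl was 0.04 (95% interval -0.15 to 0.22). Lamc1 was between 118 and 250.1 CPM in AL and between 154 and 218 CPM in Ctrl mice, and 214, 187, 182 and 226 CPM in LS mice. Itga5 was between 38.3 and 141 CPM in AL and between 33.1 and 83.9 CPM in Ctrl mice, and 46.9, 36.6, 44.2 and 41.8 CPM in LS mice. Its log2FC against Ctrl was 0.30 (SE 0.217, FDR 0.332).

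The sequencing runs were then compared, since AL and Ctrl mice were in both. In the first run alone, 3 members passed against Ctrl at an FDR under 0.05, Itgb5 higher and Lama2 and Lama5 lower, none of them past 0.58 on the log2 scale, beside 25.6% of all genes. Against LS mice in the first run, 9 members passed, beside 32.5% of all genes: Itga2b, Itgb7, Itgb3 and Lama5 were higher and Lama2, Lamb1, Itga9, Itgav and Itga7 were lower. In the second run alone, with 2 AL and 3 Ctrl mice, 0 of 29 tested members passed with edgeR, beside 0.128% of all genes, and 6 had an unadjusted p under 0.05, beside 14.1%. There, both AL mice were above all Ctrl mice for 11 members and below them for 3, and 32% of all tested genes were without overlap. Over both runs, 0 members separated AL from Ctrl mice, and 1.99% of all tested genes did.

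**Figure D4:**
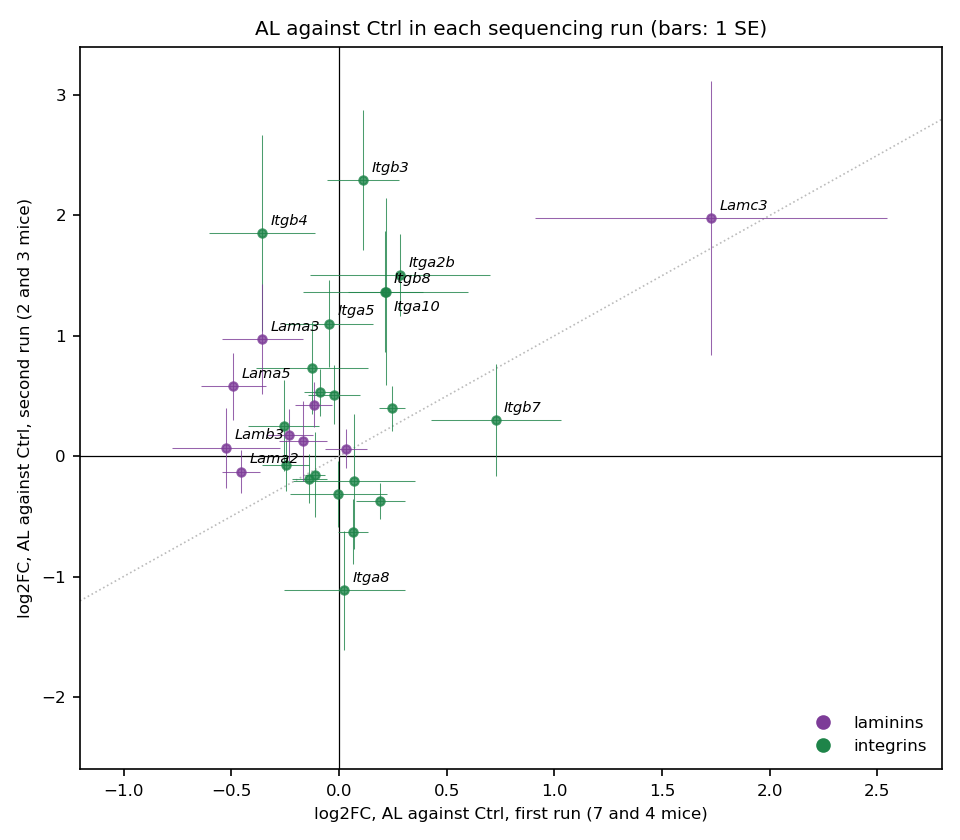
log2FC of AL against Ctrl in the first run (x axis) and in the second run (y axis) for the 29 members tested in both, with bars of 1 SE; the dotted line marks equal values. Itgb3 is near 0 in the first run and at 2.29 in the second, and Lama5 is negative in the first and positive in the second.

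The difference between runs passed for 1 member, Itgb3, which encodes the beta3 chain of the platelet receptor and of the alphaV receptor for vitronectin, and it passed for 1.49% of all genes. With DESeq2 it passed for 6 members, beside 3.94% of all genes. Itgb3 was between 4.42 and 7.55 CPM in the AL mice of the first run and 4.98 and 20.7 CPM in AL8 and AL9. In LS mice it was 4.02, 3.87, 4.87 and 3.89 CPM. In Ctrl mice it was 5.43, 6.60, 4.09 and 5.13 CPM in the first run and 1.97, 2.99 and 3.23 CPM in the second. The log2FC of AL against Ctrl was 0.11 in the first run (FDR 0.651) and 2.29 in the second (FDR 0.239), and their difference was 2.13 (SE 0.475, FDR 0.036). It was 0.75 (FDR 0.414) without AL9, so 1 library carried most of it. The FDR was 0.227 with the liver list as a covariate and 0.17 without the mice high in albumin. It also lay between 0.0518 and 0.0941 without AL5, AL6, Ctrl1, Ctrl2, Ctrl5 or Ctrl6.

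AL9 was the highest of all 20 mice for 12 of the 31 tested members, and no other mouse was highest for more than 3. AL9 was also the highest mouse for 19.9% of all 14477 tested genes, more than any other mouse (at most 9.35%). Itgb4, the partner of alpha6 in epithelial hemidesmosomes, was at 8.95 CPM in AL9 and at most 1.34 CPM in the other AL mice. Itga5 was at 141 CPM against at most 65.5 CPM, Lama5 at 205 CPM against at most 113 CPM, and Lama3 at 4.82 CPM against at most 2.97 CPM. The summed mesothelial markers were at 232 CPM in AL9 against at most 74.5 CPM in the other AL mice, and the epithelial markers at 64.7 CPM against at most 11.02 CPM. Macrophage markers were at 228 CPM against at most 150 CPM, and cycling cell markers at 42.9 CPM against at most 27.2 CPM. Endothelial markers (380 CPM, 406 CPM or more in the others) and adipocyte markers (198 CPM, 422 CPM or more) were lowest in AL9. The part of these cells in the values of AL9 was not tested. AL9 did not lead for every member: Itga1, a collagen-binding chain, was lowest there at 36.4 CPM, against 55.7 CPM or more in the other AL mice.

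**Figure D5:**
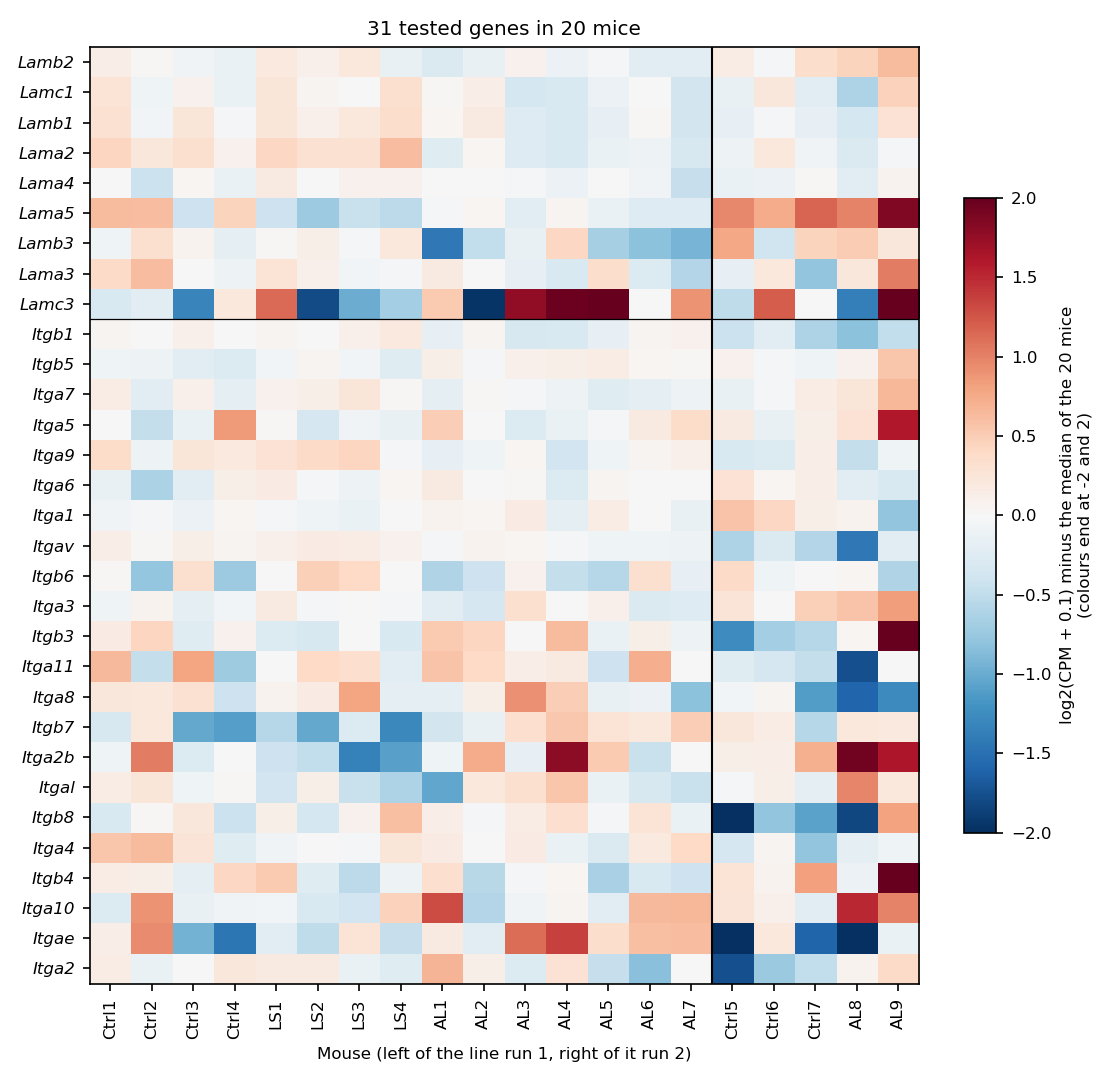
log2(CPM + 0.1) of 31 tested members minus the median of the 20 mice, with mice of the first run left of the vertical line and those of the second run right of it. AL9, in the last column, is deep red for Lama5, Lamc3, Itgb3 and Itgb4, and Lama2 is blue or pale in the AL mice.

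The remaining members gave no call in any comparison of all mice. The collagen-binding chains Itga1, Itga2, Itga10 and Itga11 gave log2FC of -0.16, 0.26, 0.52 and -0.02 against Ctrl mice. The RGD-binding chain Itga8 gave -0.27, and the laminin-binding chains Itga3 and Itga6 gave 0.12 and 0.00. Among the beta chains, Itgb4, Itgb6 and Itgb8 gave 0.29, -0.11 and 0.51. Among the laminins, Lama4 gave 0.02 (95% interval -0.14 to 0.19) and Lamb1 -0.12, while Lama3 gave 0.01 (95% interval -0.45 to 0.47), Lamb3 -0.36 (FDR 0.223) and Lamc1 -0.10 (FDR 0.624). Of the leukocyte chains, Itgal gave 0.11.

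Other genes of the same system were read from lists of basement membrane partners, other laminin receptors, integrin ligands and focal adhesion adaptors. Of 20 genes of the dystroglycan complex, syndecans and other laminin receptors, 3 were higher and 4 lower in AL than in Ctrl mice. These counts and those of the next lists stand beside 10.7% of all genes higher and 15.4% lower against Ctrl mice, and 9.78% higher and 13.6% lower against LS mice. Sgcd, the delta-sarcoglycan of the dystrophin complex, fell by 0.75 (SE 0.117, FDR 0.000319) on the log2 scale against Ctrl and by 0.92 (FDR 0.000465) against LS mice. The other 3 lower genes were Utrn, Sspn and Dmd, with log2FC of -0.55, -0.43 and -0.36 against Ctrl. The same 4 genes were lower against LS mice and Sdc3 was the 1 higher gene. The median log2FC of the list was 0.03 against Ctrl, with 0.01 for all genes.

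Of 25 basement membrane partners, 4 were higher and 1 was lower against Ctrl mice. Those called were Fras1 (log2FC 0.96, FDR 0.0298), a matrix protein of epithelial basement membranes, Sparc (0.62, FDR 0.0348), a collagen-binding matricellular protein, and Fbln1 (0.59, FDR 0.0124), a fibulin. Against LS mice, 3 were higher and 1 was lower, with calls for Agrn (1.01, FDR 0.00193), the proteoglycan agrin, and Fbln1 (0.64, FDR 0.0241). The list's median log2FC was 0.15 against Ctrl and -0.03 against LS mice, with 0.01 for all genes in each.

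Of 27 focal adhesion adaptors, 6 were higher (10.7% of all genes) and 3 lower (15.4%) against Ctrl mice, and 4 were higher (9.78%) and 3 lower (13.6%) against LS mice. Ptk2b, the focal adhesion kinase relative Pyk2, was called in both, with a log2FC of 1.02 (SE 0.191, FDR 0.00109) against Ctrl and 0.71 (FDR 0.0324) against LS mice. Fermt3, the kindlin of blood cells, was called against LS mice (0.72, FDR 0.0138), and its log2FC against Ctrl was 0.47 (FDR 0.0352). The list's median was 0.08 against Ctrl and 0.07 against LS mice.

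Of 30 tested integrin ligands, 3 were higher and 6 lower against Ctrl mice. Among the lower ones, Fga, Fgb and Fgg, the fibrinogen chains made in liver, had log2FC between -4.51 and -4.90, alongside the albumin described above. Edil3 fell by 0.96 (FDR 0.0409) on the log2 scale. Against LS mice 5 ligands were higher and 3 lower, with calls for Icam1 (0.75, FDR 0.00222), a ligand of leukocyte integrins, and Cdh1 (2.91, FDR 0.0442), the ligand of alphaEbeta7, besides the fibrinogen chains. The median of the list was 0.33 against Ctrl and 0.15 against LS mice. For the difference between runs its median log2FC was 1.38, against 0.003 for all genes. There, 3 ligands passed, beside 1.49% of all genes, so the value against Ctrl pools runs that differ. The medians of that difference were 0.21 for focal adhesion adaptors, 0.21 for other laminin receptors and 0.33 for basement membrane partners. Among the 3 leukocyte chains left out by the rule, Itgax was called higher against Ctrl (1.47, FDR 0.00554) and LS mice (1.81, FDR 0.00708), and Itgb2 against LS mice (0.94, FDR 0.035). LS against Ctrl gave 0 passing genes in each of these 5 lists with edgeR.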

How the data were processed

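Apical heart RNA of 20 mice was analysed (9 AL, 4 LS and 7 Ctrl). The authors sequenced stranded libraries, aligned reads to GRCm38 with STAR and ran Salmon through nf-core to quantify genes, and they deposited 1 table of estimated counts for 25308 genes, not normalised or adjusted for run (14.2% of values not whole; rounded here). Groups, mouse numbers and runs were taken from the sample labels, which give the run as a batch number; the study's methods describe the batches as separate sequencing runs. Low genes were removed (filterByExpr, edgeR 4.0.16, minimum count 10), and libraries were scaled by TMM and tested with glmQLFit and glmQLFTest in R 4.3.3 with the run as a term. All 3 groups were fitted together, and LS and Ctrl were merged for the comparison with merged controls. Tests were two-sided, and the FDR is Benjamini-Hochberg over 14477 genes (14288 in the first run alone and 12496 in the second). Calls required an FDR below 0.05 together with a log2FC of 0.58 or more in either direction (1 against merged controls; any for the difference between runs). SEs come from the quasi-likelihood F, and intervals (95%) from its degrees of freedom. Each library was 1 mouse, so p-values measure the spread between mice. Correlations between libraries were 0.893 to 0.98, and 0 pairs were identical.

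Precision is set by depth: a floor of 3 counts is 0.0474 to 0.0748 CPM in the first run and 0.231 to 0.356 CPM in the second, for counting error only. Lengths and positions come from GENCODE M21 (33 of 33 members matched; other genes overlap some members, and counting was strand-specific). Fully named were members past a threshold and the 3 laminins and 5 integrins of highest level per length; called pathway genes were named, and other members were given by value or count. The members and lists were chosen with earlier results of these data known. Genes of the rule and of the lists that are not reported here were kept in the fits and left out of the counts. Alternatives were other filters, RLE, DESeq2 1.42.0, ComBat-seq (sva 3.50.0), no run term, single runs, other log2FC thresholds, Xist or liver genes as covariates, a replicate block, and each mouse left out. Figures used matplotlib.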

Additional observations from a re-analysis of the deposited data

Results flagged for a closer look

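In 93 groups of mice (31 members in AL, LS and Ctrl), 15 values stood apart from the rest of their group by Dixon's criterion. It would mark about 1 group in 20 if each group came from 1 normal distribution, but the AL and Ctrl groups pool 2 runs. The share of all tested genes marked in this way was not computed, so the count is not a trait of the members. AL9 gave 9 of the 15 values, and it was also the highest mouse for 19.9% of all tested genes. AL9 was the highest AL mouse for Itga5 (141 CPM, next 65.5 CPM), Itga7 (202 CPM, next 151 CPM), Itgb3 (20.7 CPM, next 7.55 CPM), Itgb4 (8.95 CPM, next 1.34 CPM), Itgb5 (125 CPM, next 94.5 CPM), Lama3 (4.82 CPM, next 2.97 CPM), Lama5 (205 CPM, next 113 CPM) and Lamc3 (4.65 CPM, next 2.16 CPM), and the lowest for Itga1 (36.4 CPM, next 55.7 CPM). AL8 was the lowest AL mouse for Itgav (10.7 CPM, next 24.7 CPM). In Ctrl mice, Ctrl2 was highest for Itga10 (1.29 CPM, next 0.787 CPM) and lowest for Lama4 (62.0 CPM, next 76.6 CPM), Ctrl4 was highest for Itga5 (83.9 CPM, next 52.7 CPM) and Ctrl6 was highest for Lamc3 (1.20 CPM, next 0.549 CPM). In LS mice, LS3 was highest for Itgb3 (4.87 CPM, next 4.02 CPM). Of the 15 values, 11 belong to mice of the second run.

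The difference between AL and Ctrl mice itself differed between the runs for Itgb3, with a log2FC of 2.13 (second minus first run, edgeR interaction term, FDR 0.036). The log2FC was 0.75 without AL9 (FDR 0.414).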

How the results depend on the processing

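For most alternatives below, the share of all genes called is not given, so their counts cannot be set against all genes. For AL against Ctrl, 0 members were called. With no log2FC threshold 2 members passed. DESeq2 called 2 (Itgb3 and Lamc3), and ComBat-seq (Lamc3), the liver covariate (Itgb3) and the removal of the mice with albumin above 50 CPM (Itga5) each called 1. Each run alone called 0. Leaving out each mouse gave 0 to 3 (1 without AL2 or AL8, 3 without Ctrl2).

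For AL against LS, 2 were called, 4 passed with no log2FC threshold and ComBat-seq called 1. Leaving out each mouse gave 0 to 4 (0 without LS4, 4 without LS1). LS against Ctrl gave 0 under every alternative run.

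Against merged controls, 1 was called. At a threshold of 0.58 there were 4, with no threshold 8, and with Xist as a covariate 2. A filter of 10 counts in every mouse, which removes Lamc3, and the removal of the mice high in albumin each gave 0. Leaving out each mouse gave 0 to 2 (0 without AL4, AL5 or AL9, 2 without AL6 or Ctrl2).

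For the difference between runs, 1 was called, and DESeq2 called 6 (beside 3.94% of all genes), and the liver covariate and the removal of the mice high in albumin 0. Leaving out each mouse gave 0 to 9 (0 without AL5, AL6, Ctrl1, Ctrl2, Ctrl5 or Ctrl6, 2 without Ctrl3, Ctrl4 or Ctrl7, and 9 without AL8).

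For the difference between runs, leaving out AL8 left AL9 as the only AL mouse of the second run. AL9 was the highest mouse for 19.9% of all tested genes. The count of members called without AL8 thus rests on AL9 and is not a trait of the members. Mice were not treated as paired by replicate number: 3 of 15 same-number pairs had deviations with r over 0.1 (range -0.233 to 0.304). Pairs of different number were not computed for reference, so these values do not settle whether mice were paired. With a replicate block, 0 members were called for AL against Ctrl, 3 for AL against LS, 0 for LS against Ctrl and 0 against merged controls. The difference between runs could not be fitted with the block. Of 524 values of named members under the alternatives, 433 kept direction and side of the threshold. Lama5 and Itga7 in LS against Ctrl, with 31 values each, kept that side by not passing. The other members had been chosen because they passed, and most alternatives left out a single mouse. The other 91 values kept the direction and lost the threshold. The causes were not tested. The second run's depth and 5 mice limit what it can show alone.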
